A study of Mus musculus with 6 samples.

Results

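Adipogenic transcription factor and lipid storage genes were followed in osteoblasts treated with dexamethasone, with and without extracellular vesicles. The 8 members were chosen by name from the 21686 genes of the gene table. They are 5 transcription factors (Pparg, Cebpa, Cebpb, Cebpd and Klf15) and 3 genes of lipid handling (Fabp4, Lpl and Plin2), and their counts were read in all 6 libraries.

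When a precursor cell becomes a fat cell, the C/EBP factors encoded by Cebpb and Cebpd act early and switch on Pparg and Cebpa, which then keep each other active. PPARγ, the product of Pparg, is the nuclear receptor that directs the fat cell program, and Klf15 is a Krüppel-like factor that glucocorticoids induce in many cells. Fabp4 encodes the fatty acid binding protein of fat cells, Lpl encodes lipoprotein lipase, which releases fatty acids from circulating triglyceride, and Plin2 encodes a coat protein of lipid droplets that most cell types make. Osteoblasts and marrow fat cells come from a common stromal progenitor, and dexamethasone, a synthetic glucocorticoid, is part of the usual mixture that turns precursors into fat cells in culture.

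The cells were MC3T3-E1 Subclone 14, a mouse osteoblast precursor line that is 1 clone, and all 6 samples were cultured for 72 hours. The control group received 100 µl PBS, the dexamethasone group received 10 µM dexamethasone, and the dexamethasone + EPC-EVs group received 10 µM dexamethasone together with 100 µg of EPC-EVs, the extracellular vesicles of endothelial progenitor cells from mouse bone marrow. Each group had 2 libraries (n = 2), which the study's text calls biological replicates, and no group received the vesicles without dexamethasone. The design asks what dexamethasone changed, what the vesicles changed on top of it, and how far the cells given both stood from the control.

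Total counts per library ran from 5146760 to 6583735 in control and dexamethasone, and reached 12864009 and 13182014 in dexamethasone + EPC-EVs. A count of 0 allowed up to 3 counts, 0.228 to 0.583 CPM (counts scaled to library size) depending on the library, for counting error only. The dexamethasone + EPC-EVs libraries stood apart from the other 4 in composition. Mitochondrially encoded genes took 0.465% and 0.727% of their counts, against 5.55% to 8.62% elsewhere, and their most counted gene was the noncoding Gm26917 in place of mt-Co1. With 1 treatment in these 2 libraries, a difference in how they were prepared and the treatment cannot be told apart. All 13 osteoblast markers of the list had reads in control, and their levels were uneven. Spp1 was at 10780 ± 753 CPM, Dmp1 at 244.7 ± 5.96 CPM and Runx2 at 191 ± 15.8 CPM, while Alpl, Bglap and Ibsp were at 2.49 ± 0.985, 2.13 ± 0.934 and 1.36 ± 1.46 CPM (SD, n = 2).

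The start regions of 4 members' transcripts are shown as examples of different levels and courses among the 5 members with a start region in the table: Cebpb, which was called higher with EPC-EVs, Cebpa, which was low, Plin2, which was abundant and not called, and Pparg, which was hardly detected. Each is RefSeq sequence (GRCm38.p6) of the 250 bases before and the 50 bases from the annotated start, read along the gene's strand. They come from chr2:167688665-167688964 (plus strand, Cebpb), chr7:35119043-35119342 (plus strand, Cebpa), chr4:86670010-86670309 (minus strand, Plin2) and chr6:115421816-115422115 (plus strand, the one of the 3 Pparg starts in the table that holds the C/EBP motif). Capitals mark every match on either strand to the C/EBP motif TTGCNNAA, the nuclear receptor half-site AGGTCA, the glucocorticoid receptor half-site TGTTCT and the TATA box TATAAA.
Cebpb: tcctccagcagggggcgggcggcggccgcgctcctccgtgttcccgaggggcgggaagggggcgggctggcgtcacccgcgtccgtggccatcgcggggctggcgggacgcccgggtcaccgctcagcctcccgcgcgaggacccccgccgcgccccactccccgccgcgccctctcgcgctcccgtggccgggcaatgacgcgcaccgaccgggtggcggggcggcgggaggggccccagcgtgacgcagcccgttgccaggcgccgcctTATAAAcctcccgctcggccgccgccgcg
Cebpa: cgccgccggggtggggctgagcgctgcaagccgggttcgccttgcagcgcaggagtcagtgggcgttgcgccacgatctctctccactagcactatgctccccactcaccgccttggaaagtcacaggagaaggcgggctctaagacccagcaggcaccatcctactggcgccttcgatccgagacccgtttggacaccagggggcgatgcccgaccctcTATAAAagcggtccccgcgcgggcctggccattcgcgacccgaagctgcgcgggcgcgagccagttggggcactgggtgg
Plin2: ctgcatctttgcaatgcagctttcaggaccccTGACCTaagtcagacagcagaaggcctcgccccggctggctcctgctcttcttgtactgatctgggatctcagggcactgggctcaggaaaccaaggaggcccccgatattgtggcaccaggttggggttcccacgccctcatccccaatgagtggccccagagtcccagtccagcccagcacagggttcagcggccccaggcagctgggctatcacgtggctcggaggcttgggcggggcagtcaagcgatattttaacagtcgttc
Pparg: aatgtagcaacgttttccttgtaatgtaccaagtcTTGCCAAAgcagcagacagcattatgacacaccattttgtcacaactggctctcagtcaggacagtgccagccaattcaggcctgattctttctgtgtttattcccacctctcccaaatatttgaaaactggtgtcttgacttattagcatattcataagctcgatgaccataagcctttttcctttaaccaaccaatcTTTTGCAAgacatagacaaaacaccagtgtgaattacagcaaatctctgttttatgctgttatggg

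The matches did not overlap each other. Among 32851 start regions of the table, with 1 chromosome left out, 10.8% held TTGCNNAA, 16.3% held AGGTCA, 19.0% held TGTTCT and 13.6% held TATAAA. The Pparg window held 2 matches to TTGCNNAA, beginning 215 and 16 bases before the start, and the Plin2 window held 1 match to AGGTCA, read on the other strand and beginning 218 bases before the start. The other 2 Pparg windows, at 80.3% and 62.7% GC, held no TTGCNNAA and 1 match each to AGGTCA, beginning 28 and 9 bases before the start, and the second of them also held TATAAA on the other strand. A TATAAA stood 30 bases before the Cebpa start and 21 bases after the annotated Cebpb start. None of the 4 windows held TGTTCT. The Cebpb window had a GC content of 80.7%, above 99.2% of those 32851 start regions, with 50 CpG dinucleotides. Cebpa had 67.3%, Plin2 60.7% and this Pparg window 40.3%, against a median of 52.7%. A match describes letters, not a bound site. The table gave start regions for 5 of the 8 members (Klf15 is the fifth), and Cebpd, Fabp4 and Lpl are named only.

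Levels were compared between genes as FPKM, which the authors divided by gene length. Plin2 stood highest of the members in control (15.8 ± 4.23 FPKM) and in dexamethasone (22.1 ± 3.59 FPKM), ahead of Cebpb at 11.7 ± 1.56 and 18.1 ± 7.70 FPKM (SD, n = 2). With EPC-EVs Cebpb stood highest, at 71.4 ± 1.41 FPKM against 20.4 ± 1.73 FPKM for Plin2 (SD, n = 2). Averaged over the 6 libraries, Cebpb was at 33.7 FPKM, Plin2 at 19.4 FPKM and Cebpd at 10.3 FPKM. Fabp4 and Cebpa were low, at 0.851 and 0.647 FPKM. Pparg, Lpl and Klf15 were at 0.137, 0.0345 and 0.00907 FPKM, and the highest of them stood above only 23.8% of the genes. The early C/EBP factors and the droplet coat gene thus had the highest levels, and the factors that act later and the other lipid genes had the lowest.

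Cebpb (ENSMUSG00000056501.3, chromosome 2 from 167688915 to 167690418 in GRCm38) is a gene of 1 exon that overlaps Tmem189 on the other strand. It had 118 and 82 counts in control, 233 and 125 in dexamethasone, and 1400 and 1395 in dexamethasone + EPC-EVs. Scaled to library size by the TMM method, these were 19.2 and 16.3 CPM, 33.9 and 18.4 CPM, and 110.9 and 109.5 CPM. Both EPC-EV libraries lay above the other 4, which lay close together except for dexamethasone replicate 1.

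Cebpd (ENSMUSG00000071637.5, chromosome 16 from 15887286 to 15891031) overlaps Spidr on the other strand. It had 40.6 and 27.1 CPM in control, 34.6 and 31.8 CPM in dexamethasone, and 33.9 and 63.4 CPM in dexamethasone + EPC-EVs. The groups overlapped, and the single high library was dexamethasone + EPC-EVs replicate 2. Cebpa (ENSMUSG00000034957.10, chromosome 7 from 35119293 to 35121928) overlaps the antisense gene Gm45091. It had 10 and 0 counts in control, 5 and 0 in dexamethasone, and 59 and 43 in dexamethasone + EPC-EVs, which were 1.63 and 0, 0.728 and 0, and 4.67 and 3.38 CPM. Replicate 2 of control and of dexamethasone had no read of Cebpa, and both EPC-EV libraries lay above the other 4.

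Pparg (ENSMUSG00000000440.12, chromosome 6 from 115360951 to 115490399) overlaps the antisense gene Gm44079 and had reads in the dexamethasone libraries only, with 2 and 14 counts, or 0.291 and 2.06 CPM. The other 4 libraries had 0 counts. Taken over the group, dexamethasone had 16 counts, 1.22 CPM. This was 4.57-fold the floor of 3 counts over the control group (0.266 CPM). It was 10.6-fold that floor over the dexamethasone + EPC-EVs group (0.115 CPM). These values cover the counting error of the groups at 0 only and take the 16 counts as exact. They rest on dexamethasone replicate 2, since replicate 1 was under its own floor. Klf15 (ENSMUSG00000030087.11, chromosome 6 from 90462576 to 90475238) had 1 count in dexamethasone replicate 1 and 0 counts in the other 5 libraries.

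Fabp4 (ENSMUSG00000062515.3, chromosome 3 from 10204088 to 10208576, minus strand) had 44 and 14 counts in control, 65 and 15 in dexamethasone, and 9 and 2 in dexamethasone + EPC-EVs. These were 7.17 and 2.79 CPM, 9.46 and 2.21 CPM, and 0.713 and 0.157 CPM. The EPC-EV libraries lay under the other 4, and within control and within dexamethasone the libraries differed by more than the group means did. Lpl (ENSMUSG00000015568.16, chromosome 8 from 68880491 to 68907448) had 3 and 2 counts in control, 7 and 1 in dexamethasone, and 1 and 0 in dexamethasone + EPC-EVs, so that 1 library alone was above the floor. Plin2 (ENSMUSG00000028494.12, chromosome 4 from 86648386 to 86670060, minus strand) was abundant in every library, with 66.0 and 46.2 CPM in control, 83.0 and 66.5 CPM in dexamethasone, and 77.2 and 69.5 CPM in dexamethasone + EPC-EVs. Its lowest library was control replicate 2, and the dexamethasone and dexamethasone + EPC-EVs libraries interleaved.

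**Figure D1:**
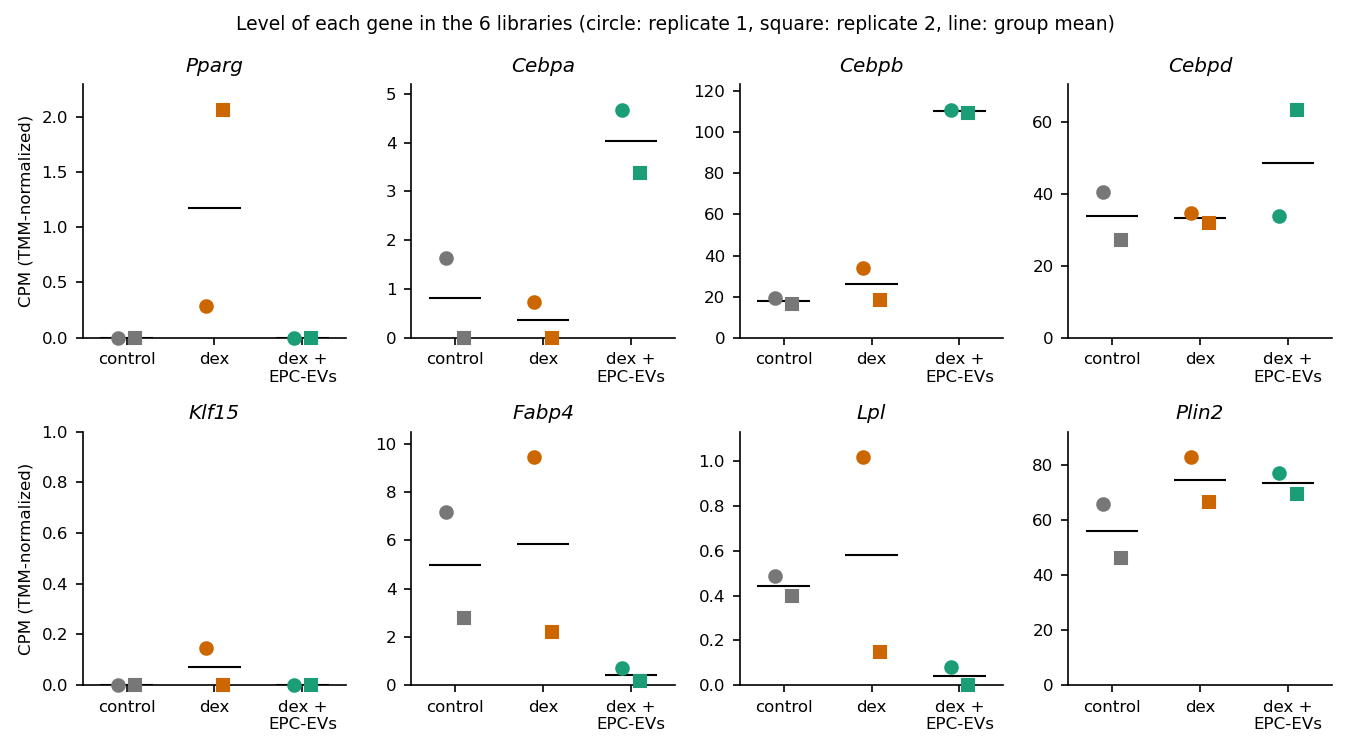
Level of the 8 genes in CPM after TMM normalization (vertical axis, from 0, a separate scale for each gene) in control, dexamethasone and dexamethasone + EPC-EVs. Points are single libraries and lines are group means; the 2 EPC-EV libraries of Cebpb sit at 110.9 and 109.5 CPM above all others, those of Fabp4 sit at 0.713 and 0.157 CPM below all others, and Plin2 stays between 46.2 and 83.0 CPM.

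Dexamethasone against control gave no called change in these genes. Plin2 was 56.1 ± 14.0 CPM in control and 74.8 ± 11.6 CPM in dexamethasone (SD, n = 2), and Cebpb was 17.8 ± 2.05 and 26.2 ± 10.97 CPM (SD, n = 2). Fabp4 was 4.98 ± 3.10 and 5.84 ± 5.13 CPM, and Cebpd 33.8 ± 9.54 and 33.2 ± 2.02 CPM (SD, n = 2). The bulk counts cannot tell a change in the number of cells of a type from a change in RNA per cell, here or in any comparison.

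The filter on low counts (edgeR's filterByExpr) passed 4 of the 8 members in this comparison, and Pparg, Cebpa, Klf15 and Lpl were not tested. Calls were made by edgeR's quasi-likelihood test at an adjusted p under 0.05, with Benjamini-Hochberg adjustment across every gene tested. None of the 4 members was called, none had an unadjusted p under 0.05 in that test, and DESeq2 called none, though it gave an adjusted p to Plin2 alone. Over all 12879 genes tested, 0.0544% were called and 10.9% had an unadjusted p under 0.05. The study's own threshold was p below 0.05 before adjustment with a log2 fold change past 1.5 either way, which the paper set on DESeq values. Applied here to the edgeR values throughout, it took in 1.41% of the genes and 0 of these members. The log2 fold changes were 0.55 for Cebpb (SE 0.363), 0.41 for Plin2 (SE 0.237), 0.22 for Fabp4 (SE 0.787) and -0.03 for Cebpd (SE 0.281). The Cebpb value was 0.04 without dexamethasone replicate 1 and 0.93 without replicate 2, and 0.001 with the dependence on GC content and length taken out. The adjusted p-values from edgeR's quasi-likelihood test ran from 0.546 to 0.984, and the median log2 fold change of all genes was 0.01. Plin2 was the only tested member whose libraries kept apart between the groups, as did those of 44.1% of all genes tested. Without control replicate 1, Plin2 passed the edgeR test with a log2 fold change of 0.70 and an adjusted p of 0.0251, and it did so in none of the 3 fits that left out another library.

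Adding EPC-EVs to dexamethasone went with more Cebpb RNA. Cebpb went from 26.2 ± 10.97 to 110.2 ± 0.973 CPM (SD, n = 2), 4.08-fold higher in the fit, a log2 fold change of 2.03 that was 0.55 once the dependence on GC content and length, described further on, was taken out. Fabp4 went from 5.84 ± 5.13 to 0.435 ± 0.393 CPM (SD, n = 2). Cebpa was at 0.364 ± 0.515 and 4.02 ± 0.917 CPM (SD, n = 2), and the calls of Fabp4 and Cebpa are described with their limits. Cebpd was 33.2 ± 2.02 and 48.7 ± 20.9 CPM, and Plin2 74.8 ± 11.6 and 73.4 ± 5.42 CPM (SD, n = 2), and neither was called.

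In this comparison 5 members passed the filter and 3 were called, 2 of them higher and 1 lower. Of all 13556 genes tested, 39.8% were called, 20.9% higher and 18.9% lower, so the members' share has to be read against a large background. Cebpa passed the filter only through its counts with EPC-EVs and Fabp4 only through its counts in dexamethasone, so their tests and their place in this count are a description and support nothing. The log2 fold change of Cebpb was 2.03 (SE 0.245, adjusted p = 7.84e-05 by edgeR's quasi-likelihood test). For Cebpa it was 3.37 (SE 1.08, adjusted p = 0.0277 by the same edgeR test), and for Fabp4 -3.76 (SE 0.993, adjusted p = 0.0107 by the same edgeR test). Cebpd had 0.50 (SE 0.274) and Plin2 -0.07 (SE 0.172), with adjusted p-values of 0.167 and 0.766 from edgeR. The same 3 genes passed the study's own threshold, which 14.2% of all genes did. The libraries of these 3 genes did not overlap between the groups, which held for 72.6% of all genes tested. DESeq2 called 4 members, the same 3 and Pparg, and 4953 of the 20877 genes to which it gave a p-value. Pparg was lower, with 2 and 14 counts in dexamethasone and 0 in both EPC-EV libraries. Its reads came from dexamethasone alone, so its call is a description too and supports nothing.

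Single libraries decided some of these calls. The call of Cebpa was lost without dexamethasone replicate 2 (log2 fold change 2.40, adjusted p = 0.0944 by edgeR) and without dexamethasone + EPC-EVs replicate 1 (3.13, adjusted p = 0.148 by edgeR), and in one fit of all 6 libraries (3.38, adjusted p = 0.115 by edgeR). The call of Fabp4 was lost without dexamethasone replicate 1 (-2.34, adjusted p = 0.259 by edgeR). Cebpd was called without dexamethasone + EPC-EVs replicate 1 (0.90, adjusted p = 0.00449 by edgeR), and without replicate 2 of that group its log2 fold change was 0.0037. Cebpb was called in each of these fits.

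Cells given dexamethasone and EPC-EVs also differed from the control in Cebpb. Cebpb was at 17.8 ± 2.05 CPM in control and 110.2 ± 0.973 CPM with both agents (SD, n = 2), 5.98-fold higher in the fit, and with the dependence on GC content and length taken out its log2 fold change went from 2.58 to 0.56 and it was not called (adjusted p = 0.115 by edgeR). Fabp4 was at 4.98 ± 3.10 and 0.435 ± 0.393 CPM (SD, n = 2) and passed the filter only through its control counts, so its call is a description. Cebpa was at 0.814 ± 1.15 and 4.02 ± 0.917 CPM (SD, n = 2) and was not called.

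Of the 5 members that passed the filter here, 2 were called, 1 higher and 1 lower, where 36.4% of all 13511 genes tested were called, 19.1% higher and 17.2% lower. The log2 fold change of Cebpb was 2.58 (SE 0.230, adjusted p = 0.000284 by edgeR's quasi-likelihood test) and that of Fabp4 was -3.53 (SE 1.10, adjusted p = 0.036 by the same edgeR test). Cebpa had 2.19 (SE 1.21), Cebpd 0.47 (SE 0.351) and Plin2 0.34 (SE 0.241), with adjusted p-values of 0.191, 0.321 and 0.304 from edgeR. The Cebpa value was 1.27 without control replicate 2 and 8.35 without control replicate 1, where the control left had 0 counts. Cebpb and Fabp4 passed the study's own threshold, which 20.7% of all genes did. The call of Fabp4 was lost without control replicate 1 (-2.65, adjusted p = 0.155 by edgeR) and without EPC-EV replicate 1 (-4.89, adjusted p = 0.0643 by edgeR) or 2 (-2.81, adjusted p = 0.237 by edgeR). Without control replicate 1 the log2 fold change of Plin2 was 0.66. The Cebpa value of 8.35 in that fit stood against a control library at 0 counts, so it is a description. The comparisons share libraries, so their values stand side by side and are not independent of each other.

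**Figure D2:**
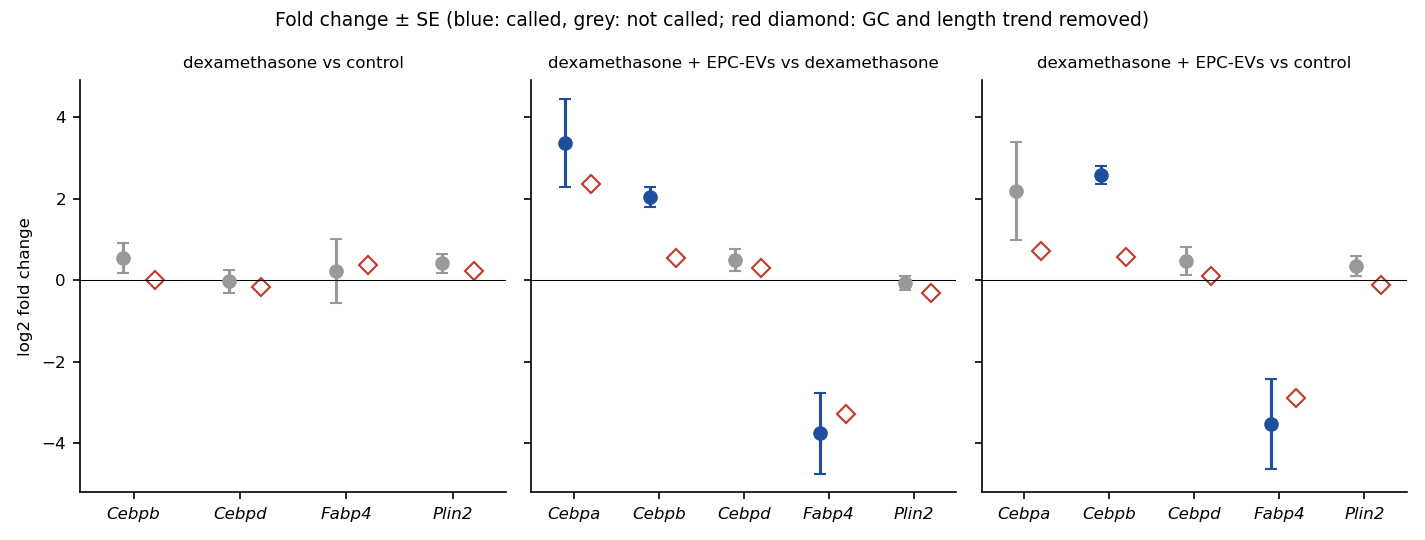
Log2 fold change with its standard error (vertical axis) for each member that passed the filter, in the 3 comparisons; blue points passed edgeR's test at an adjusted p under 0.05, grey points did not, and red diamonds give the fold change after the dependence on GC and length was taken out. Without that removal Cebpb stands at 2.03 and 2.58 in the comparisons with EPC-EVs, and after it at 0.55 and 0.56, while Fabp4 stands at -3.76 and -3.53, and after it at -3.29 and -2.90. The points of Fabp4 there, and of Cebpa over dexamethasone, are descriptions, since each passed the filter only through the group where it was higher.

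Fold changes of all genes followed the GC content of their transcripts, and the members are spread over that scale. Ordered by GC content and divided into 10 bins of equal size, the genes of bin 1, the lowest, had a median log2 fold change of -0.93 and those of bin 10 had 0.89 between dexamethasone + EPC-EVs and dexamethasone. Against control the medians were -1.22 and 1.31, and between dexamethasone and control -0.26 and 0.42. The longest transcripts of Cebpb and Cebpa have a GC content of 67.2% and 62.6% and lie in bin 10, Plin2 and Cebpd at 52.1% and 51.6% lie in bin 7, and Fabp4 at 42.7% lies in bin 2. Within its own bin, Cebpa had a higher fold change with EPC-EVs over dexamethasone than 97.1% of the genes and Cebpb than 87.5%, while 1.40% of its bin had a lower fold change than Fabp4. Over control these shares were 77.0%, 85.3% and 2.00%. After the removal of the trend described next they were 97.3%, 70.5% and 1.18% over dexamethasone, and 73.1%, 68.4% and 1.63% over control. Cebpa passed the filter over dexamethasone only through its counts with EPC-EVs, and Fabp4 in both comparisons only through the other group. Their places in these bins are therefore descriptions. Cebpb, which has no intron, also belongs to the protein-coding genes of 1 exon, and the median log2 fold change of these was 0.57 over 256 genes with EPC-EVs over dexamethasone and 0.76 over 254 genes over control. With the trend removed it was 0.33 in both, where Cebpb was at 0.55 and 0.56.

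When a smooth trend on transcript GC and length was taken out of each library, which was decided after the data were seen, Cebpb, Cebpa and Fabp4 kept their direction in the comparisons with EPC-EVs and their fold changes were smaller. Between dexamethasone + EPC-EVs and dexamethasone, Cebpb was at 0.55 (adjusted p = 0.0378 by edgeR) and still called, where 32.1% of all genes were. Fabp4 at -3.29 (adjusted p = 0.0212 by edgeR) kept its call, and Cebpa at 2.36 (adjusted p = 0.108 by edgeR) was no longer called. Fabp4 passed the filter only through its dexamethasone counts and Cebpa only through its counts with EPC-EVs, so these values remain descriptions. Against control, Cebpb was at 0.56, Fabp4 at -2.90 and Cebpa at 0.71, with adjusted p-values of 0.115, 0.0811 and 0.681 from edgeR, and no member was called, where 26.0% of all genes were. The Plin2 value against control went from 0.34 to -0.11 and was called in neither. A part of GC content or library preparation in these values was not tested beyond this removal.

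**Figure D3:**
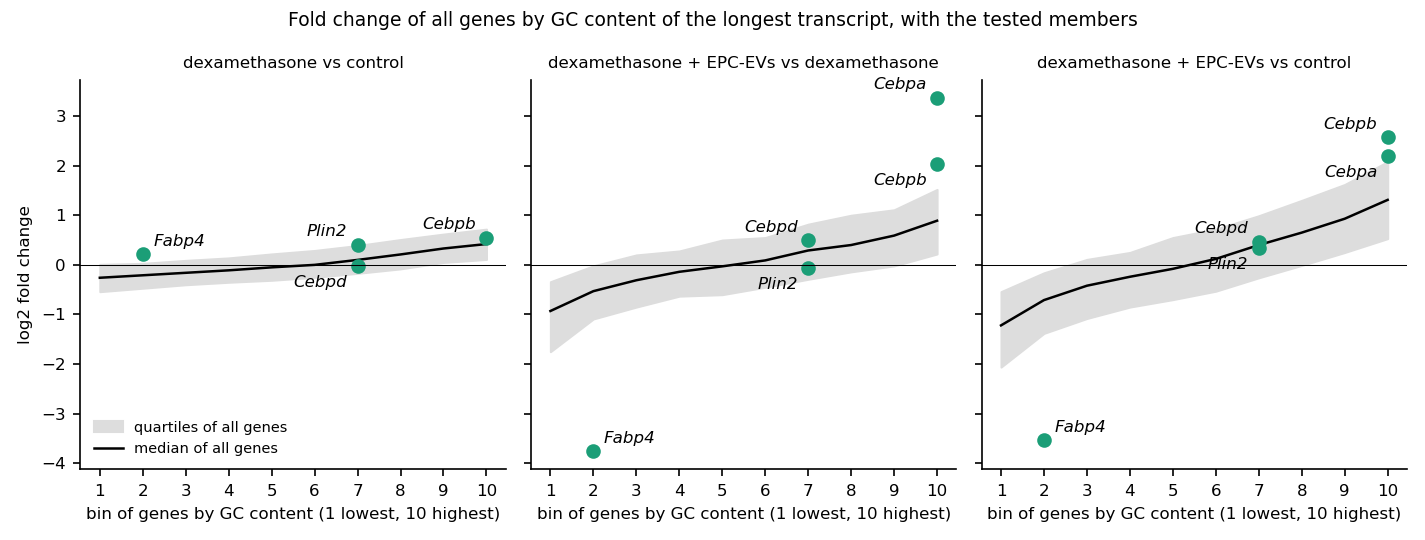
Median (line) and quartiles (grey band) of the log2 fold change of all genes tested (vertical axis) in 10 bins of GC content of the longest transcript (horizontal axis, lowest first), with the tested members as green points. In both comparisons with EPC-EVs the median climbs from bin 1 (-0.93 and -1.22) to bin 10 (0.89 and 1.31), Cebpb and Cebpa stand above the line in bin 10, and Fabp4 stands far under it in bin 2. The places of Fabp4, and of Cebpa over dexamethasone, are descriptions, since each passed the filter only through the group where it was higher.

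The genes whose course over the 6 libraries was most like that of each member were found by the root mean square difference of log2 CPM, each centred on its own mean, among 9223 genes that averaged 10 CPM or more. Nearest to Cebpb were Fads2, a fatty acid desaturase (difference 0.135, from 89.2 CPM in dexamethasone to 348.9 CPM with EPC-EVs), Aprt and Miga2. Nearest to Plin2 were Arhgef7 (0.0402), Tcn2 and Sesn2, and nearest to Cebpd were Arhgap42 (0.0543), Yipf4 and Bcl6. For the low members the nearest genes were less close, with Dpp7, Gm37352 and Mn1 for Cebpa (0.517 for Dpp7) and Fosl1, Cenpq and Gm5559 for Fabp4 (0.551 for Fosl1). These are descriptions over 6 libraries that share 3 treatments.

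Other genes of the same processes were read from lists, and their counts stand beside the shares of all genes called, which were 20.9% higher and 18.9% lower over dexamethasone and 19.1% and 17.2% over control. Of 17 other adipogenic regulators tested, none was called between dexamethasone and control (median log2 fold change -0.10), and 5 were called higher and 3 lower with EPC-EVs over dexamethasone (median -0.03), where 39.8% of all genes were called. Those that rose most were Zfp467 (1.95), a zinc finger factor that favours fat over bone, and Srebf1 (1.30), the sterol regulatory factor that drives lipid synthesis genes. Those that fell most were Klf5 (-3.42), a Krüppel-like factor that acts early in adipogenesis, and Creb1 (-1.08), the cAMP response factor that acts on Cebpb. Against control 3 were called higher, with Srebf1 (2.13) and the retinoid receptor gene Rxra (1.51), the partner of PPARγ, on top, and 3 lower, led by Klf5 (-3.78) and Creb1 (-1.29). Klf5 had 6 and 10 counts with EPC-EVs and passed the filter in both comparisons through the other group only, so its calls are descriptions.

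Of 13 inhibitors of adipogenesis tested, 0 were called between dexamethasone and control, and 2 were called higher and 6 lower with EPC-EVs over dexamethasone (median -0.47). Klf2, a Krüppel-like factor that represses Pparg, rose by 4.20 on the log2 scale, from 2.85 ± 0.288 to 54.5 ± 4.92 CPM (SD, n = 2), and Zfp521 rose by 0.84. Tcf7l2, a Wnt pathway factor, fell by 1.04 and Ddit3, a C/EBP relative that blocks the others, fell by 0.99. Against control, Klf2 was higher (3.53) and 3 were lower, led by Foxo1 (-1.64) and Ddit3 (-1.32).

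Of 11 triglyceride synthesis genes tested, 6 were higher with EPC-EVs over dexamethasone and 5 over control, none was lower, and the medians were 0.61 and 0.79. With the GC and length trend removed, 1 and 2 genes of the list were called higher, where 17.0% and 12.0% of all genes were. The acyltransferase genes Agpat2 and Agpat1 rose most, by 1.67 and 1.25 over dexamethasone and by 2.45 and 1.99 over control. Of 9 genes of the lipid droplet coat and lipolysis tested with EPC-EVs, 1 was higher over dexamethasone, Lipe (1.10), the hormone-sensitive lipase, and 3 over control, Lipe (1.56), Abhd5 (1.03) and Plin3 (0.77), with medians of 0.15 and 0.84. Lipe and Abhd5, a lipase activator, act in the breakdown of triglyceride, and Plin3 encodes a droplet coat protein. Of 10 genes of fatty acid uptake and binding, 4 were higher and 2 lower over dexamethasone (median 0.45). Those were led by the fatty acid transporters Slc27a4 (1.94) and Slc27a1 (1.74) above and by the lipase inhibitor Angptl4 (-3.95) and the receptor Vldlr (-1.82) below. Angptl4 had 0 and 10 counts with EPC-EVs and passed the filter through dexamethasone only, so its call is a description too. Over control 5 were higher, led by Slc27a3 (2.40) and Slc27a1 (2.09), and Vldlr was lower (-1.92), with a median of 1.36. Between dexamethasone and control none of the 11, 8 and 9 genes tested in these lists was called, with medians of 0.16, 0.62 and 0.21.

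Of 8 glucocorticoid receptor targets tested, none was called between dexamethasone and control (median -0.04). With EPC-EVs over dexamethasone 5 were higher, led by Tsc22d3 (2.40) and Dusp1 (2.21), and Mt2 was lower (-2.00), with a median of 0.74. Over control 4 were higher, again led by Tsc22d3 (2.31) and Dusp1 (1.77), and Errfi1 was lower (-0.85), with a median of 0.76. The median of all genes was 0.01 and 0.02 in these comparisons.

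With the GC and length trend removed, fewer genes were called higher in every one of these lists except the inhibitors. For adipogenic regulators with EPC-EVs over dexamethasone it left 0 higher and 3 lower, for inhibitors 3 and 3, for triglyceride synthesis 1 and 0, for the droplet list 0 and 0, for fatty acid uptake 3 and 2, and for glucocorticoid receptor targets 3 and 2. Over control the counts it left were 2 and 2, 1 and 3, 2 and 0, 1 and 0, 4 and 1, and 2 and 3 in the same order. Over all genes this removal left 17.0% higher and 15.1% lower over dexamethasone, and 12.0% and 14.0% over control.

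**Figure D4:**
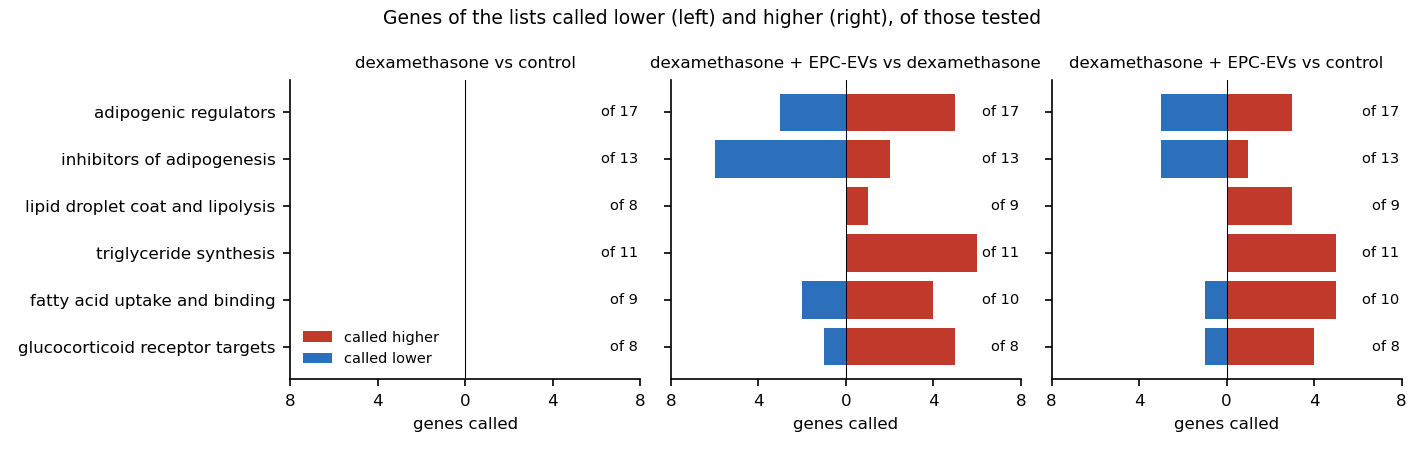
Number of genes called (horizontal axis, higher to the right in red and lower to the left in blue) in 6 lists of the fat cell program and of glucocorticoid response, for the 3 comparisons, with the number tested at the right. No bar appears for dexamethasone against control, and the triglyceride synthesis bars point to the right alone, with 6 of 11 and 5 of 11 genes.

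Markers of mature fat cells had few reads or none. Of 10 such genes 4 were in the table (Adipoq, Slc2a4, Adig and Adrb3), and none passed the filter in any comparison. Adrb3, a receptor through which fat cells start lipolysis, had 6 counts in dexamethasone replicate 1, above the floor of 3, and 0 in the other 5 libraries. Slc2a4 had 1 count and Adig 2, each in 1 EPC-EV library. Adipoq, which encodes adiponectin, had 1 count in dexamethasone replicate 1 and 0 in the other 5 libraries. Plin1, which encodes the droplet coat protein of fat cells, had 1 count in control replicate 1 and 0 elsewhere. The summed level of the 4 adipocyte cell markers found in the table, of 8 listed, reached at most 0.163 CPM in control, 1.02 CPM in dexamethasone and 0.158 CPM in dexamethasone + EPC-EVs.

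Markers of other cell types were read as well. Of 10 endothelial markers 7 were in the table, with sums of 103 to 125 CPM in control, 118 to 120.0 CPM in dexamethasone and 93.3 to 119 CPM in dexamethasone + EPC-EVs, with Flt1 at 109.4, 114.9 and 103.1 CPM on average. Cdh5 and Emcn were at 0 in control, Tek and Emcn in dexamethasone, and Cdh5 and Tek with EPC-EVs. Of 10 macrophage markers 5 were in the table, with sums of 13.7 to 14.3, 17.8 to 20.0 and 20.1 to 55.4 CPM, and Adgre1 at 0 in control and with EPC-EVs. The highest was dexamethasone + EPC-EVs replicate 2, where Csf1r alone had 471 counts against 56 in replicate 1. Csf1r was called higher over control (4.25, adjusted p = 0.0259 by edgeR), and with the GC and length trend removed 1 of the 4 macrophage markers tested was called. The 13 osteoblast markers summed to 16150 to 17700, 17410 to 17880 and 23490 to 29430 CPM, and in both comparisons with EPC-EVs Col1a1, Col1a2 and Sparc were called higher and Phex and Spp1 lower, of 11 tested over dexamethasone and 13 over control. With the GC and length trend removed 3 were higher and 1 lower over dexamethasone, and 2 higher and 1 lower over control. The part of these markers in the members' values was not tested.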

How the data were processed

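RNA of 6 MC3T3-E1 Subclone 14 samples was sequenced as paired reads. The authors aligned the reads with HISAT2, counted them on genes of GRCm38 with HTSeq 0.6.1, and deposited raw counts beside FPKM, which equal the count divided by gene length and library total. Reads that failed their quality filters were removed first. Whether HTSeq counted by strand is not given in the sources used here, so reads of a gene and of an overlapping gene on the other strand may not be told apart. A transcript table holding chromosome 1 was not used, as no member lies there.

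Groups followed the sample labels, since the series' design text gives another cell type and time. The counts of the 4 libraries of each comparison entered a fit by edgeR 4.0.16 under R 4.3.3 (TMM normalization, filterByExpr, robust quasi-likelihood test), with Benjamini-Hochberg adjustment over all genes tested and a threshold of 0.05. CPM use TMM over the 6 libraries. Each SD is over 2 libraries. The test was tested on simulated data. The 2 replicates always differed beyond sampling noise (chi-square per degree of freedom 16.6, 7.17 and 20.1 in control, dexamethasone and dexamethasone + EPC-EVs). Intervals and floors cover counting error only.

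Alternatives tried were RLE and upper-quartile normalization, DESeq2 1.42.0, no filter or a filter of 1 CPM, a joint fit of all 6 libraries, mitochondrially encoded genes left out, the replicate number as a block, each library left out in turn, and the study's threshold. Removal of a loess trend (span 0.4) on GC content and length of the longest GENCODE vM21 transcript, found for 21646 genes, was chosen after seeing the data.

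The members, the gene lists and the tests were chosen with earlier results of these data known. All members are named, and from each list the called genes with the largest fold change, at most 2 in each direction, and markers at 0. For each member past the filter, the 3 genes of the most alike course are named. Plin1 and Plin3 of the droplet list, Csf1r and other markers with values were chosen after their values were seen. The authors' table holds no comparison columns.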

Additional observations from a re-analysis of the deposited data

How the results depend on the processing

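Over the alternatives, 160 of the member fold changes kept their direction and their side of the threshold, 10 lost a call, 4 gained one and 8 changed sign. With the GC and length trend removed, 0 members were called between dexamethasone + EPC-EVs and control, where 26.0% of all genes were. The genes called between dexamethasone and control were 7, of which 28.6% were higher. They were 129 with DESeq2 (31.0% higher), 248 with no filter (48.0%), 11 with at least 1 CPM in every library of a group (27.3%), 1 without the mitochondrially encoded genes (0% higher), 18 with the GC and length trend removed (44.4%), 182 under the study's threshold (58.8%), and from 9 to 2200 with each library left out, the highest without control replicate 1 (57.6%). The other comparisons gave 1922 over dexamethasone and 2793 over control under the study's threshold, and from 3250 to 4813 over dexamethasone with each library left out, the lowest without dexamethasone replicate 2. With each library left out, the log2 fold change between dexamethasone and control ran from -0.28 to 0.30 for Cebpd, from -1.18 to 1.06 for Fabp4, from 0.04 to 0.93 for Cebpb and from 0.19 to 0.70 for Plin2, that of Cebpd over dexamethasone from 0.0037 to 0.90, that of Cebpa from 2.40 to 8.43 over dexamethasone and from 1.27 to 8.35 over control, that of Fabp4 from -5.13 to -2.34 and from -4.89 to -2.65, that of Plin2 over dexamethasone from -0.22 to 0.11, and that of Cebpd over control from -0.03 to 0.87. The Cebpa values of 8.43 and 8.35 were each taken against 1 library at 0 counts, so they are not exact fold changes. Plin2 over control was -0.11 with the trend removed. The cause of these shifts was not tested, and a group reduced to 1 library takes its spread from the other group.

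With the replicate number as a block, 43 genes were called between dexamethasone and control, of which 34.9% were higher, and the block changed no member's call. Whether the numbers pair the samples is not given in the sources used here. The correlations over genes of the differences between replicate 1 and 2 were 0.062, 0.0113 and 0.00718 for the 3 pairs of groups. With 1 difference per group they cannot decide it, so the replicate block is no more than a check. The median of all genes over control moved from 0.02 to 0.129 with DESeq2, to 0.171 with no filter and to 0.154 without control replicate 1, and Cebpb and Fabp4 kept their direction in each. At these depths Pparg, Klf15 and Lpl did not pass edgeR's filter in any comparison.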
